A study of Homo sapiens with 4 samples.

Results

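Genes for the chaperones of the endoplasmic reticulum (ER) and for the unfolded protein response were examined in MIA PaCa-2 cells treated with interleukin-1β (IL-1β) and in untreated cells. The set was a list of 37 genes chosen by function, with earlier results of these data known. It held 4 lectin chaperones of glycoprotein folding, 10 genes around the chaperone HSPA5 and 6 disulfide enzymes. The rest were 11 genes of ER-associated degradation, 4 genes of the stress sensors and 2 genes of the translocon. Of the 37 genes, 30 could be tested, among 8862 genes tested in all. MIA PaCa-2 is an established human line derived from a pancreatic carcinoma. The treated group received IL-1β, an inflammatory cytokine, at 2 ng/ml for 36 h, and the control group was cultured without it; both were grown in high-glucose medium with 10% fetal bovine serum. Each group held 2 samples, each of total RNA hybridised to 1 Illumina WG-6 bead chip array. The cells are 1 tumour line. Nothing in the labels ties the samples of a group to separate cultures, and the p-values below measure only how far these samples differ, which may be technical.

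Proteins that enter the secretory pathway fold in the ER with the help of HSPA5 (BiP), its J-domain partners, the lectin chaperones calnexin and calreticulin, and the protein disulfide isomerases. Proteins that fail to fold are taken out to the cytosol and degraded. When unfolded proteins accumulate, the sensors IRE1 (encoded by ERN1), PERK (EIF2AK3) and ATF6 start the unfolded protein response: spliced XBP1 and cleaved ATF6 raise the transcription of folding and degradation genes, and PERK slows translation and raises ATF4. Exocrine cells of the pancreas are known for an extensive ER, since they secrete large amounts of enzyme.

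Across the arrays, 12740 to 13157 of 48803 probes were detected, and raw intensities averaged 482 and 449 on the IL-1β arrays against 527 and 549 on the control arrays. Intensities are given below as normalized log2 values, and a difference is always IL-1β minus control. The median SE of such a difference over all tested probes was 0.111. Of 6 epithelial markers, KRT8, KRT18 and KRT19 were detected and EPCAM, KRT7 and CDH1 were detected on no array, so the labelled epithelial identity rests on keratins here. The raw intensities of all 6 markers summed to between 12389.5 and 14249.3 with IL-1β and between 17482.9 and 18766.5 in controls; their part in the results below was not tested. VIM and ZEB1 were also detected. Among markers of other cells, those detected on at least 2 arrays were 0 of 4 islet markers, 1 of 5 acinar markers (CEL), 1 of 4 leukocyte markers with a probe (CD14, while PTPRC, CD3E and ITGAM were detected on no array) and 1 of 4 endothelial markers (CDH5). Of 5 fibroblast markers COL1A2 alone was detected, and the 5 summed to between 2998 and 3245 with IL-1β and between 4066 and 4513 in controls; their part was not tested either.

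Promoter sequence was searched for the exact letters of classical binding sites of the response, and the matches are given before the values. Sites with other letters or outside the stretch searched were not looked for, so a gene without a match may still carry one. The ER stress element (ERSE), bound by NF-Y and by ATF6 or XBP1, reads CCAAT, 9 free bases and CCACG, and the shorter ERSE-II reads ATTGG, 1 free base and CCACG. Both strands of 35116 RefSeq promoters (build GRCh38.p14, 250 bases before to 50 bases after a start) were searched. An exact ERSE lay in 27 of them (0.0769%) and an exact ERSE-II in 19 (0.0541%). Of the 37 listed genes 34 had a promoter entry, and 11 of them held one of these elements, out of 44 such genes in the genome table. The list was chosen by function and holds genes of this response, so the 11 describe it and test nothing. The ERSE genes were HSPA5, HSP90B1, CALR, CANX, CRELD2, PDIA6, ERO1B and XBP1, shown here with capitals on the conserved ends of the element, which reads backwards as CGTGG and ATTGG where it lies on the other strand. The whole 250 bases before the start are printed for HSPA5, the central chaperone of the response, and the element with its flanks for the others.
HSPA5, chr9:125241344-125241593, minus strand: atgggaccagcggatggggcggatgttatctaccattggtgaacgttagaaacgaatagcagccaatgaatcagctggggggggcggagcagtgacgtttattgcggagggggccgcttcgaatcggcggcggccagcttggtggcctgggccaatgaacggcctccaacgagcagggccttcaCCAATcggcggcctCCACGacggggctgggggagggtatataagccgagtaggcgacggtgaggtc
HSP90B1, far element, chr12:103930201-103930249, plus strand: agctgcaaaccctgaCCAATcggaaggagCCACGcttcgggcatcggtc
HSP90B1, near element, chr12:103930306-103930354, plus strand: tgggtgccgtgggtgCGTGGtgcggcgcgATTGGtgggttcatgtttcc
CALR, chr19:12938369-12938417, plus strand: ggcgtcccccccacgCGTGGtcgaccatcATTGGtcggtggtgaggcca
CANX, chr5:179698763-179698811, plus strand: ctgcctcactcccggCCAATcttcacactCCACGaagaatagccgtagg
CRELD2, chr22:49918539-49918587, plus strand: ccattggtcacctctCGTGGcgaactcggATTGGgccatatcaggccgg
PDIA6, chr2:10812838-10812886, minus strand: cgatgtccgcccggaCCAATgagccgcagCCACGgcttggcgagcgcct
ERO1B, chr1:236282168-236282208, minus strand: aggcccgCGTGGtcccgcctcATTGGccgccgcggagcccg
XBP1, chr22:28800588-28800636, minus strand: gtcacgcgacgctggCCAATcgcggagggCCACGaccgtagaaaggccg
These 9 elements share only their ends, and the 9 bases between them differ from gene to gene. In HSPA5 the exact element began 66 bases before the start. HSP90B1 carried elements 194 and 89 bases before its start, on opposite strands. The CANX element lay 151 bases before the start used here, and CANX has other listed starts.

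HYOU1, SDF2L1 and HERPUD1 held the shorter ERSE-II. For the first pair of these genes, which were measured on the arrays, it is shown with capitals on all bases but the variable one.
HYOU1, far element, chr11:119057365-119057405, minus strand: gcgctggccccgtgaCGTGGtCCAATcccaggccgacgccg
HYOU1, near element, chr11:119057259-119057299, minus strand: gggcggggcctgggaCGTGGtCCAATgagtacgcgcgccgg
SDF2L1, chr22:21642099-21642139, plus strand: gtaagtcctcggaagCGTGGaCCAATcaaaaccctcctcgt
HYOU1 carried its elements 185 and 79 bases before the start. The far element overlaps a match to the UPR element TGACGTGG, which was found in 256 promoters (0.729%) and, among the listed genes, otherwise only in DNAJC10. CLGN and MANF, whose differences are described below, had neither ERSE nor ERSE-II. The 250 bases before their starts are printed to show this, with capitals on CCAAT boxes of either strand.
CLGN, chr4:140427649-140427898, minus strand: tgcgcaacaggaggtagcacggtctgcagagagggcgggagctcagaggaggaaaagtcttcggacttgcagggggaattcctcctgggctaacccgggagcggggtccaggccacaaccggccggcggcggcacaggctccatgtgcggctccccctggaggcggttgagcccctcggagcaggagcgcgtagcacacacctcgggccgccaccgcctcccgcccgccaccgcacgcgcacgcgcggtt
MANF, chr3:51385041-51385290, plus strand: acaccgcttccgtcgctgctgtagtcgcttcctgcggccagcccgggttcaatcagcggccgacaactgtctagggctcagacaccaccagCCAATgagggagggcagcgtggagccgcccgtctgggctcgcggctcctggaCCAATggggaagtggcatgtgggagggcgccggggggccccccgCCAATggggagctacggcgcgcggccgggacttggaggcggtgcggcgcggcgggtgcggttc
The CLGN stretch held 0 CCAAT boxes and the MANF stretch held 3, none of them part of either element. A CCAAT box on either strand was present in 34.6% of all promoters. No match says only that these letters are absent from the window searched.

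Relative to the median of all genes, the listed genes stood slightly higher after IL-1β, and no single gene passed the test over all probes. The median difference was 0.12 over the 30 tested, 20 of them higher and 10 lower, while 50.2% of all tested genes were higher, with a median of 0.00. With scaling to the median of all probes the listed genes had a median of -0.11, with 10 of 30 higher, but that scaling moved the median of all genes to -0.22. The share of all genes that were higher was 35.7% in the series matrix of the authors and 37.2% with the scaling of their averaged table, where the listed genes had medians of 0.04 and 0.02. The median was 0.06 without the second IL-1β array and 0.13 to 0.16 without any other array. Against the median of all genes in the same setting, that of the listed genes stood 0.05 to 0.16 higher in every setting tried. Scaling an array by 1 factor moves all genes alike and cannot change this gap, which was 0.11 under both scalings to a median.

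By single-gene tests, 0 of 30 listed genes had an adjusted p under 0.05 in limma, where 0% of all genes did (Benjamini-Hochberg over 13152 probes). One gene, CLGN, had an adjusted p under 0.1, which 0.914% of all genes had. CLGN was tested through its IL-1β arrays, with 1 of 2 control arrays detecting it, so this call is no support. At an unadjusted p under 0.05 there were 7 higher genes, against a background of 9.40% of all genes, and 2 lower genes, against 8.36%. CLGN and ERO1B are among the 7, and ERO1B too was tested through its IL-1β arrays, so their places in the count are no support. Among the 28 genes detected on all 4 arrays, which leaves out CLGN and ERO1B, 18 were higher and the median was 0.10. In a separate fit to probes detected on all 4 arrays, 8 of the 28 had an unadjusted p under 0.05, where 19.3% of all genes did. The 9 genes of the reported fit became fewer without any 1 array, and the share of all genes fell too. Such a fit leaves 1 array in a group. With a replicate block 5 listed genes were under that level, where 14.4% of all genes were. In 21 of the 30 genes the groups stood apart without overlap, 14 of them higher and 7 lower, where 51.4% of all genes had no overlap, 26.3% higher and 25.1% lower. CLGN was the only one at least 1.5-fold apart with no overlap, a size that 2.84% of all genes reached. That size too rests on 1 control value not above background. In RNA from whole cultures, fewer cells with a transcript and less of it per cell cannot be told apart.

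**Figure D1:**
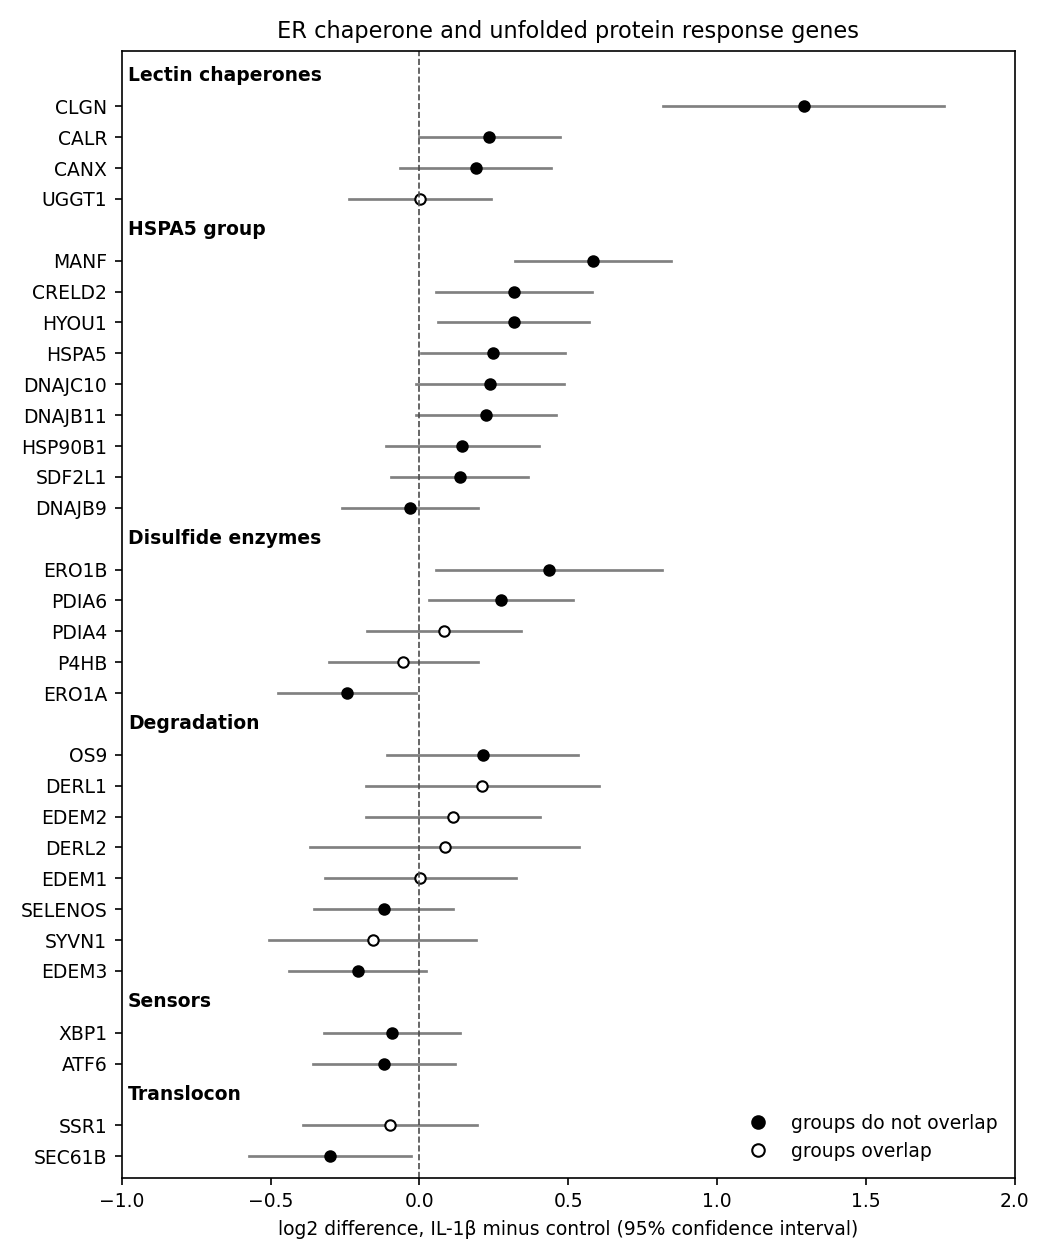
Log2 difference (IL-1β minus control, x axis) of the 30 tested genes by subgroup, with the 95% confidence interval from limma as a line; filled points mark genes whose arrays do not overlap between groups. CLGN lies at 1.29 and MANF at 0.58, and the other 28 genes lie between -0.30 and 0.44.

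The lectin chaperones bind sugar-tagged glycoproteins and hold them in the ER until they fold. CLGN (calmegin), a relative of calnexin known for its role in sperm development in mice, had log2 intensities of 7.51 and 7.60 with IL-1β and 6.53 and 5.99 in controls. Both IL-1β arrays were well above both control arrays, and the probe was detected on 1 of the 2 control arrays. The fitted difference was 1.29 ± 0.19 (± SE, here and below), or 2.45-fold (95% confidence interval 1.76 to 3.39), with adjusted p = 0.092 in limma. But 1 of its control values is not above background, and CLGN was tested through its IL-1β arrays, so this p is no support. The other CLGN probe was detected on no array, with 5.77 and 5.49 with IL-1β against 5.18 and 4.67 in controls. Settings that change only the probe filter or the variance model cannot alter a difference. CLGN kept its direction in all 17 settings that could read it, with differences from 0.55 to 1.56. Its adjusted p in limma passed 0.05 in 5 of them and ranged from 0.000799 to 0.402.

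CALR and CANX encode calreticulin and calnexin, the soluble and the membrane-bound chaperone of the same cycle. CALR had 9.85 and 9.78 with IL-1β against 9.61 and 9.56 in controls. CANX had 10.25 and 10.32 with IL-1β against 10.16 and 10.03 in controls. In both genes the groups were apart, by far less than in CLGN. The CALR difference was 0.23 ± 0.09, or 1.18-fold (0.999 to 1.39; adjusted p = 0.273 in limma). The CANX difference was 0.19 ± 0.10 (adjusted p = 0.386 in limma), and its other probe was at 0.12. UGGT1, the glucosyltransferase that sends incompletely folded glycoproteins back to calnexin, was close to its control, with 7.82 and 7.81 with IL-1β against 7.77 and 7.86 in controls and a difference of 0.00 ± 0.10. The median of the 4 genes was 0.21, and it was -0.02 with scaling to the median of all probes.

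**Figure D2:**
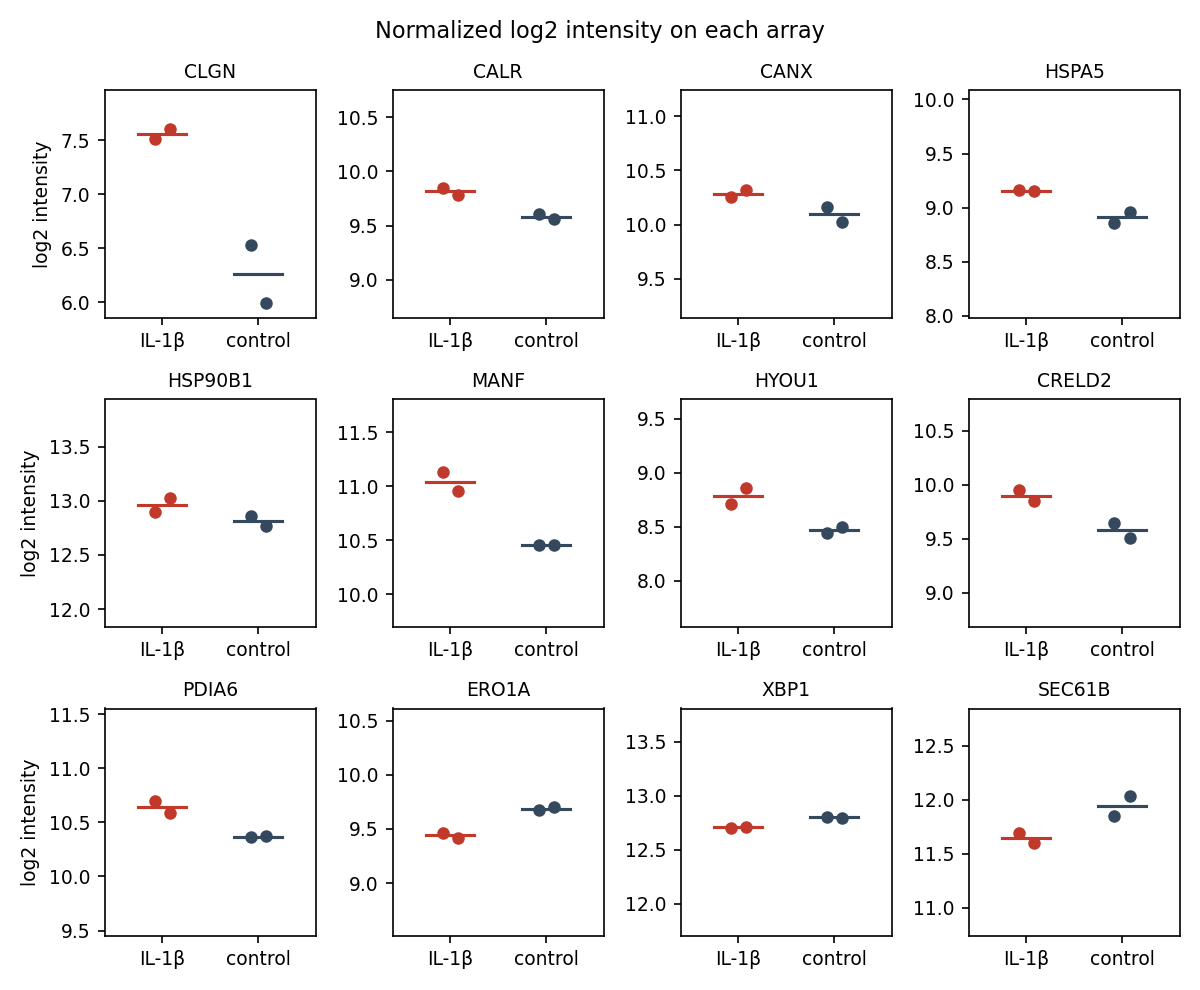
Normalized log2 intensity (y axis) of 12 genes on each array, with IL-1β arrays in red on the left, control arrays in blue on the right and a line at each group mean; every axis spans the same range of log2 units around its own middle. CLGN and MANF show the widest gaps, while ERO1A, XBP1 and SEC61B lie lower on both IL-1β arrays.

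HSPA5 and the genes around it, which bind unfolded chains or assist that binding, were mostly higher. The median difference was 0.24, and the groups stood apart without overlap in all 9 tested genes, of which 8 were higher and 1 was lower, where 51.4% of all genes had no overlap, 26.3% higher and 25.1% lower. Without any 1 array 8 of 9 were again higher, whereas 5 of 9 were higher with scaling to the median of all probes, where the median was 0.01. Relative to all genes the subgroup stood 0.16 to 0.25 higher in every setting, a gap that 1 factor per array cannot change. At an unadjusted p under 0.05, 4 were higher, where 9.40% of all genes were, and 0 lower, where 8.36% were.

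HSPA5 itself, the HSP70 chaperone of the ER that also holds the sensors inactive, had 9.16 and 9.15 with IL-1β against 8.86 and 8.96 in controls. The difference was 0.25 ± 0.10, or 1.19-fold (1.00 to 1.40; adjusted p = 0.265 in limma). HSP90B1, the HSP90 of the ER, had 12.89 and 13.02 with IL-1β against 12.86 and 12.77 in controls, a difference of 0.14 ± 0.10 (adjusted p = 0.509 in limma). With scaling to the median of all probes, HSPA5 was at -0.0009 and HSP90B1 at -0.03. These best-known chaperones of the response thus differed by small amounts that did not pass the test.

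MANF, a secreted protein of the ER that binds HSPA5, had the largest difference of the subgroup, with 11.13 and 10.96 on the IL-1β arrays against 10.46 on both control arrays. The difference was 0.58 ± 0.11, or 1.498-fold (1.25 to 1.80; adjusted p = 0.109 in limma), just under the 1.5-fold line. As for CLGN, settings that change only the probe filter or the variance model could not alter the difference. MANF kept its direction in 18 of 18 settings, with differences from 0.36 to 0.67. Its adjusted p in limma passed 0.05 in 3 of them, with a range from 0.00065 to 0.432. HYOU1, a large HSP70 relative that releases ADP from HSPA5, had 8.71 and 8.86 with IL-1β against 8.44 and 8.49 in controls. Its difference was 0.32 ± 0.10 (adjusted p = 0.206 in limma), and its other probe, with 8.38 and 8.36 with IL-1β against 7.85 and 8.05 in controls, was at 0.42 ± 0.11. CRELD2, a secreted ER protein, had 9.95 and 9.85 with IL-1β against 9.65 and 9.51 in controls, a difference of 0.32 ± 0.11 (adjusted p = 0.213 in limma). All 3 genes were apart in the same direction, without overlap of the groups.

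Among the J-domain partners of HSPA5, DNAJB11 and DNAJC10 were at 0.22 ± 0.09 and 0.24 ± 0.10, both with adjusted p = 0.288 in limma, and the dimmer DNAJC10 probe was at -0.02. DNAJB9, a J-domain protein that is a standard target of spliced XBP1, was close to its control, with 9.53 on both IL-1β arrays against 9.58 and 9.55 in controls. Its difference was -0.03 ± 0.09 (0.979-fold, 0.835 to 1.15; adjusted p = 0.895 in limma). SDF2L1, which works with DNAJB11, had 10.10 and 10.09 with IL-1β against 9.94 and 9.98 in controls, a difference of 0.13 ± 0.09 (adjusted p = 0.490 in limma) that was -0.10 with scaling to the median of all probes. DNAJC3, an inhibitor of PERK, was detected on no array and was not tested.

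The disulfide enzymes form and rearrange the bonds between cysteines. Their median was 0.08, with 3 of 5 higher, and it was -0.15 with scaling to the median of all probes and 0.00 without the first control array. The oxidases that recharge the isomerases went different ways. ERO1B, the form prominent in pancreas, had 6.51 and 6.55 with IL-1β against 6.30 and 5.89 in controls, where 1 of 2 arrays detected it. The fitted difference was 0.44 ± 0.15 (adjusted p = 0.229 in limma), but 1 of its control values is not above background. ERO1B was tested through its IL-1β arrays, so this p is no support. The other ERO1B probe, also dim, was at 0.09 ± 0.24. ERO1A, the widely expressed oxidase, had 9.47 and 9.42 with IL-1β against 9.67 and 9.70 in controls. It was lower on both IL-1β arrays, with a difference of -0.24 ± 0.09 (0.844-fold, 0.719 to 0.991; adjusted p = 0.254 in limma). The isomerase PDIA6 had 10.70 and 10.58 with IL-1β against 10.36 and 10.37 in controls, a difference of 0.27 ± 0.10 (adjusted p = 0.236 in limma). The isomerases PDIA4 and P4HB were at 0.08 ± 0.10 and -0.05 ± 0.10 with overlapping groups, and PDIA3 was detected on no array.

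Genes of ER-associated degradation pull failed proteins through the membrane and tag them with ubiquitin. Their median was 0.04, with 5 of 8 higher and 3 lower. An unadjusted p under 0.05 was reached by 0 of the 8, which with so few genes says little beside the 17.8% of all genes that reached it. The sign of the median was not stable: it was -0.10 without the second IL-1β array, -0.09 without the second control array and -0.19 with scaling to the median of all probes. EDEM3, a mannosidase of glycoprotein disposal, had 7.993 and 8.005 with IL-1β against 8.19 and 8.23 in controls and was lower without overlap, at -0.21 ± 0.09 (adjusted p = 0.307 in limma). The lectin OS9 had 7.09 and 6.82 with IL-1β against 6.81 and 6.67 in controls, a difference of 0.21 ± 0.13 (adjusted p = 0.437 in limma). The others were DERL1 at 0.21 ± 0.16, EDEM2 at 0.11 ± 0.12, DERL2 at 0.08 ± 0.18, EDEM1 at 0.00 ± 0.13, SELENOS at -0.12 ± 0.09 and the ubiquitin ligase SYVN1 at -0.16 ± 0.14. The groups overlapped in these probes except that of SELENOS. A second, dimmer probe of DERL2 was at 0.21 ± 0.11 without overlap, and a second probe of SELENOS was at -0.00 ± 0.09 with overlap, so for both genes the picture depends on the probe. SEL1L and DERL3 were detected on no array, and HERPUD1 has no probe under its name in the probe table and is covered only by the authors' score below.

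The sensor arm was represented by XBP1 and ATF6, and neither was higher. XBP1, the transcription factor made active when IRE1 splices its RNA, had 12.71 on both IL-1β arrays against 12.81 and 12.80 in controls. It was lower on both IL-1β arrays, with a small difference of -0.09 ± 0.09 (0.938-fold, 0.801 to 1.10; adjusted p = 0.647 in limma), and its other probe was at -0.14. These probes were not placed on the transcript here, so spliced and unspliced XBP1 are not told apart. ATF6 had 10.40 and 10.43 with IL-1β against 10.58 and 10.49 in controls, a difference of -0.12 ± 0.09 (adjusted p = 0.558 in limma). EIF2AK3 was detected on 1 of 4 arrays, a control, with 5.41 and 5.81 with IL-1β against 6.18 and 5.75 in controls, and was not tested. ERN1 has no probe under its name in the probe table.

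In the translocon, the channel through which new proteins enter the ER, both genes were lower. SEC61B, a channel subunit, had 11.69 and 11.60 with IL-1β against 11.85 and 12.03 in controls. Both IL-1β arrays were below both control arrays, with a difference of -0.30 ± 0.11 (0.813-fold, 0.673 to 0.982; adjusted p = 0.245 in limma). SSR1, a subunit of the translocon-associated complex, had 11.04 and 10.82 with IL-1β against 11.08 and 10.98 in controls. Its groups overlapped, with a difference of -0.10 ± 0.12 that was 0.01 without the second IL-1β array.

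Grouped by promoter, 10 tested genes held an exact ERSE or ERSE-II, of which 9, ERO1B among them, were higher, where 50.2% of all genes were. Their differences lay between -0.09 (XBP1) and 0.44 (ERO1B), with a median of 0.24. The 19 with a promoter entry and neither element had a median of 0.00, with 10 higher, 9 lower and differences between -0.30 (SEC61B) and 1.29 (CLGN). At an unadjusted p under 0.05 there were 5 of 10 with an element, the dim ERO1B among them, and 4 of 19 without, CLGN among them, against 17.8% of all genes. ERO1B and CLGN were tested through their IL-1β arrays, so their places in these counts are no support. Outside the list, 16 tested genes held an element, with a median of 0.02; 10 of them were higher and 6 lower. With scaling to the median of all probes, the listed genes CANX, HSPA5, HSP90B1 and SDF2L1, which hold an element, turned lower. So did UGGT1, PDIA4, EDEM1, EDEM2 and DERL2, which hold neither. Most listed genes with an element also belong to the lectin or HSPA5 group, so these groupings overlap. CLGN and MANF, the genes with the largest differences, were among those without an exact match. That says nothing of sites with other letters or outside the window searched. These are counts over genes of 1 contrast, without a test.

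**Figure D3:**
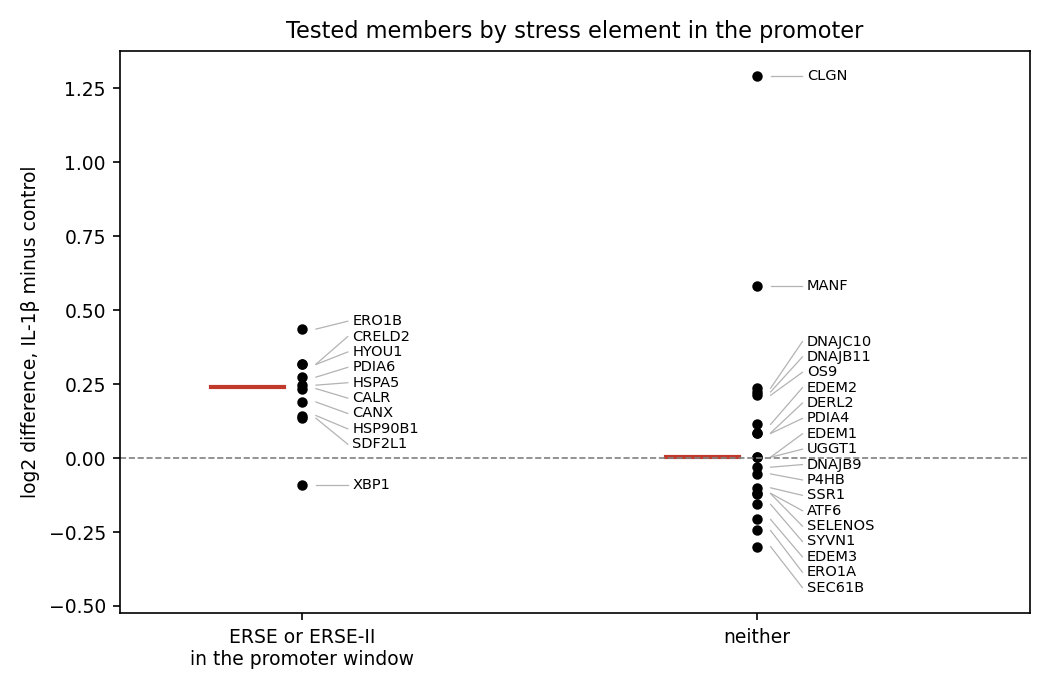
Log2 difference (IL-1β minus control, y axis) of tested genes with an exact ERSE or ERSE-II in the RefSeq promoter window (left, 10 genes) and with no exact match (right, 19 genes). Red lines are medians. In the reported setting the left group has a median of 0.24 and the right group, which holds CLGN and MANF, a median of 0.00.

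The wider pathway had a median close to that of all genes. Of 144 further genes of the ER and its stress arms 117 were tested, and their median difference was 0.02, with 63 genes higher and 54 lower. At an unadjusted p under 0.05 they held 6 higher and 7 lower genes, against the same backgrounds of 9.40% and 8.36%. Of 15 other members of the disulfide isomerase family, 1 was higher and 2 lower at that level, with a median of 0.05. TXNDC12, a small thioredoxin-like protein of the ER, had 11.60 and 11.47 with IL-1β against 10.95 and 10.92 in controls, a difference of 0.60 ± 0.10 (1.52-fold, 1.28 to 1.80; adjusted p = 0.104 in limma). TMX4, a membrane-bound member, had 7.77 and 7.72 with IL-1β against 8.36 and 8.50 in controls, a difference of -0.69 ± 0.10 (adjusted p = 0.092 in limma), and its other probe was at -0.45. These genes of 1 family thus stood on opposite sides of their controls.

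Of 22 other folding factors, 1 was higher and 1 lower at an unadjusted p under 0.05, where 9.40% and 8.36% of all genes were. Their median was 0.04. SERPINH1, the collagen chaperone, had 10.42 and 10.41 with IL-1β against 9.91 and 10.21 in controls, a difference of 0.36 ± 0.13 (adjusted p = 0.238 in limma). DNAJC1, a J-domain membrane protein, had 5.67 and 5.06 with IL-1β against 6.30 on both control arrays. It was not detected on either IL-1β array and was at least 1.19-fold lower there, a bound set by the dimmest detected signal. DNAJC1, the 1 lower gene of this list, was tested only because both control arrays detected it, so its adjusted p of 0.128 in limma and its place in the count support nothing. In the rest of the translocon and the signal peptidase, 17 genes had a median of 0.05, with 1 higher and 0 lower at that level. The signal peptidase subunit SPCS3 was at 0.32 ± 0.10 (7.88 and 7.85 with IL-1β against 7.60 and 7.49 in controls; adjusted p = 0.192 in limma). The channel subunit SEC61A1 was at -0.24 ± 0.10 (12.08 and 12.21 with IL-1β against 12.38 and 12.40 in controls; adjusted p = 0.280 in limma), on the same side as SEC61B.

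Of 17 genes of N-glycosylation and glucose trimming, 2 were higher and 0 lower at an unadjusted p under 0.05, where 9.40% and 8.36% of all genes were. Their median was 0.00. MOGS, the glucosidase that trims the first glucose, had 8.17 and 8.16 with IL-1β against 7.75 and 7.87 in controls, a difference of 0.36 ± 0.10 (adjusted p = 0.170 in limma), and the cargo receptor LMAN1 was at -0.26 ± 0.16 with overlapping groups. The 22 other degradation genes had a median of -0.06, with 0 higher and 2 lower at that level, against the same shares. UBE2J2, a ubiquitin-conjugating enzyme of the ER, had 7.12 and 7.16 with IL-1β against 7.43 on both control arrays, a difference of -0.30 ± 0.09 (adjusted p = 0.199 in limma). The probes of the ubiquitin ligase MARCHF6 disagreed, at 0.18 ± 0.10 and -0.32 ± 0.12.

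**Figure D4:**
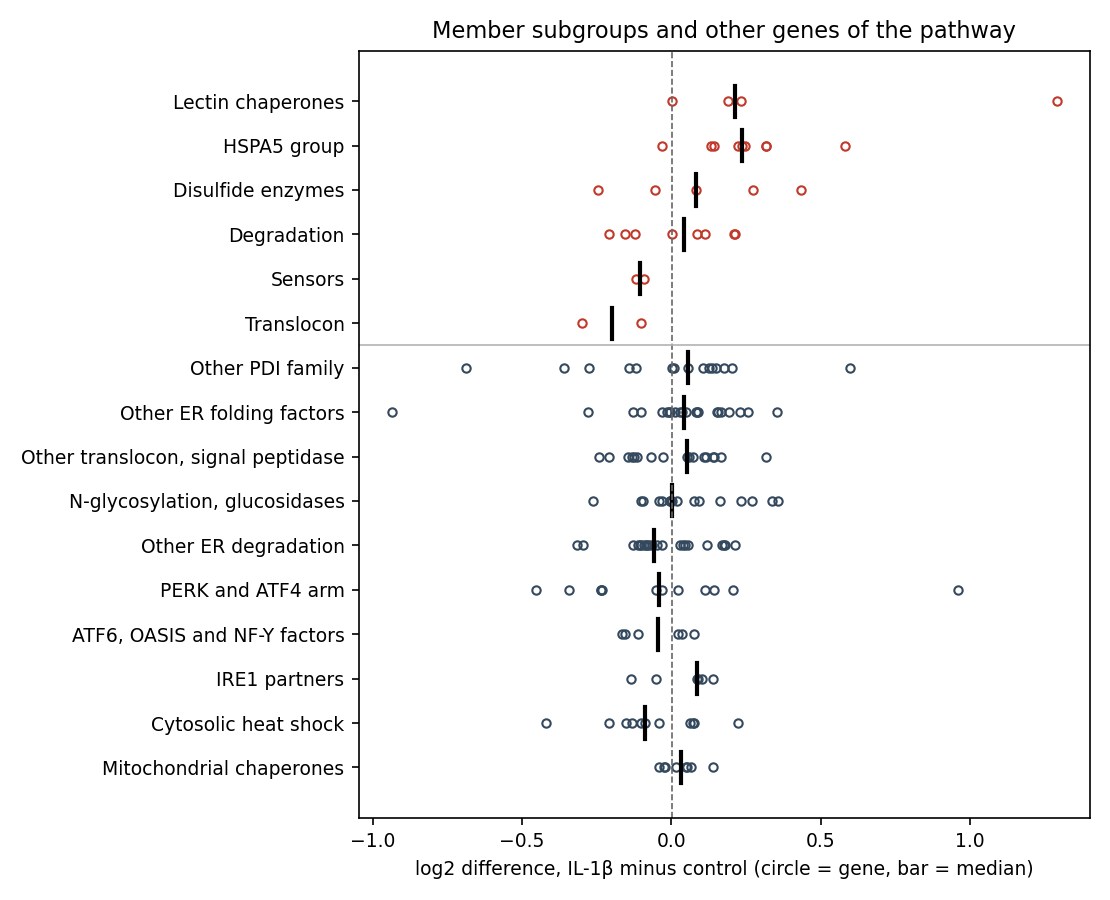
Log2 difference (IL-1β minus control, x axis) of every tested gene in the 6 subgroups (red circles, above the line) and in 10 further lists (blue circles, below it), with a black bar at each median. The bars of the lectin and HSPA5 groups lie at 0.21 and 0.24, and those of the 10 further lists between -0.09 and 0.09.

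The PERK and ATF4 arm showed no common direction, with 5 of 12 higher and a median of -0.04. At an unadjusted p under 0.05, 1 was higher and 2 were lower, where 9.40% and 8.36% of all genes were. NUPR1, a small nuclear protein made under stress, had 9.61 and 9.47 with IL-1β against 8.48 and 8.67 in controls. Its difference of 0.96 ± 0.12, or 1.95-fold (1.59 to 2.38), had adjusted p = 0.0774 in limma, and its other probe was at 0.86. ATF3, a stress-induced transcription factor, was on the other side, with 9.26 and 9.10 with IL-1β against 9.51 and 9.77 in controls and a difference of -0.45 ± 0.13 (adjusted p = 0.178 in limma). PPP1R15A, the phosphatase subunit that restores translation, had 11.98 and 11.92 with IL-1β against 12.10 and 12.26 in controls, a difference of -0.23 ± 0.10 (adjusted p = 0.310 in limma).

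The central genes of that arm lay near their controls. ATF4 had 13.68 and 13.79 with IL-1β against 13.79 and 13.75 in controls, a difference of -0.03 ± 0.10, and its other probes were at -0.04 and -0.18; the sign of ATF4 turned with cyclic loess, scaling to the median of tested probes and the authors' series matrix values. DDIT3 (CHOP), the transcription factor of ER stress death, had 10.94 and 11.03 with IL-1β against 10.81 and 10.93 in controls, a difference of 0.11 ± 0.10 (1.08-fold, 0.906 to 1.29) that was -0.09 with scaling to the median of all probes. TRIB3, a pseudokinase induced by ATF4 and DDIT3, had 11.85 and 11.90 with IL-1β against 11.90 and 11.94 in controls, a difference of -0.05 ± 0.09. ATF4, DDIT3 and TRIB3 had adjusted p of 0.898, 0.610 and 0.823 in limma.

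Among the remaining lists, 0 genes had an unadjusted p under 0.05, which 17.8% of all genes had. Of 6 factors of the ATF6 and OASIS family with their partner NF-Y, 3 were higher, with a median of -0.04. The NF-Y subunit NFYC was at 0.07 ± 0.12, with its sign turning under scaling to the median of all probes and in the authors' series matrix values, and the protease MBTPS1, which cleaves ATF6, was at -0.17 ± 0.10. The 6 tested partners of IRE1 had a median of 0.09, with TMBIM6 at 0.14 ± 0.10 and BAK1 at -0.13 ± 0.14. For comparison with other compartments, 11 genes of cytosolic heat shock had a median of -0.09, with 4 higher, from HSPA1B at 0.22 ± 0.10 to HSF1 at -0.42 ± 0.19. The 8 mitochondrial chaperones had a median of 0.03, with 5 higher, and LONP1 and TRAP1 were at 0.14 ± 0.11 and -0.04 ± 0.11.

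**Figure D5:**
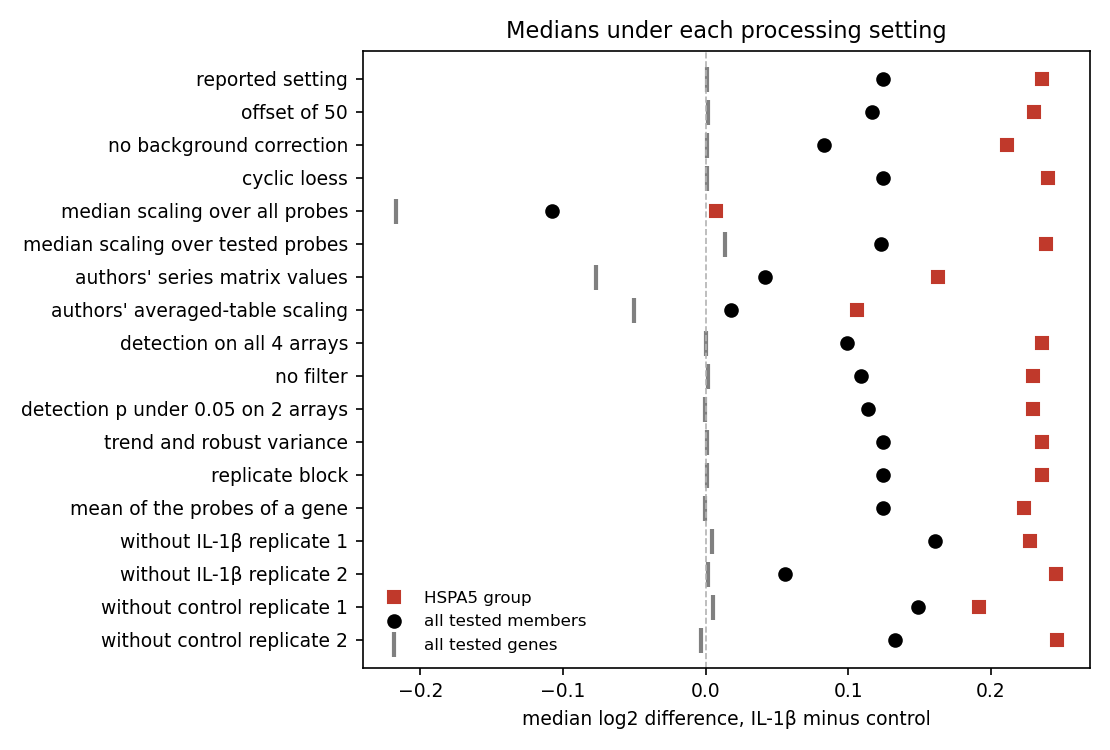
Median log2 difference (IL-1β minus control, x axis) of the HSPA5 group (red squares), of all tested genes of the list (black circles) and of all tested genes (grey bars) under the reported setting and each alternative. The HSPA5 group stays right of the grey bar by 0.16 to 0.25 and the whole list by 0.05 to 0.16, while scaling to the median of all probes moves all of them to the left.

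A signed score per gene in the authors' deposited table covers 8 of the listed genes, with no formula in the sources used here. Of its 1440 scores 84.4% are negative in the authors' deposited table, and the smallest size is 13.0. The positive scores in the authors' deposited table are 50.1 for CLGN and 25.6 for MANF, which were also higher here. The negative scores in the authors' deposited table are -50.5 for ERO1A, -38.0 for SELENOS, -29.2 for ATF6, -26.3 for HERPUD1, -23.8 for SEC61B, and -19.8 and -18.0 for XBP1. The 5 of these genes that were tested here were lower here too. HSPA5, CALR, CANX and HYOU1 are not among the 8 genes. Both rest on the same arrays, so the scores are no independent measurement.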

How the data were processed

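RNA of 2 IL-1β-treated and 2 untreated samples was read on bead chips of 48803 probes. As deposited, the raw values are linear intensities of each probe without background subtraction, beside a detection p-value per array, per the file headers. For the series matrix the authors took 1 constant off the intensities of each array and then applied 1 factor, as its values show; their averaged table holds scaled group means of 1464 probes. The authors' deposited score table gives a signed score per gene. The scanning software and the formula of the score are not given in those sources.

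From the raw intensities, background correction and quantile normalization to log2 values were done by neqc (limma 3.58.1, R 4.3.3), with an offset of 16. A probe was tested where its detection p was under 0.01 on 2 or more of the 4 arrays, which held for 13152. Each gene was represented by the brightest of its tested probes, with the others given beside it. IL-1β was set against control by limma (lmFit, eBayes; two-sided), with p adjusted by Benjamini-Hochberg over all tested probes and a threshold of 0.05. With 2 arrays per group the fit had 5.52 degrees of freedom, prior included. The fit was tested on simulated data.

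Probe names came from the platform's probe table, where 27578 probes have 1 gene, 13 have several and 21212 are not listed. The list holds 48 probes, of which 37 were tested. Of its 37 genes, 5 had probes that were not detected often enough and 2 had no listed probe. Promoters were searched in Python 3.11.15.

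The list and the further lists were chosen with earlier results of these data known. By rule, array values are given for the 2 genes with the smallest unadjusted p in each subgroup and for a fixed set of well-known members. Outside this rule they are also given for CRELD2, ERO1A and UGGT1. Each further list is shown by its gene with the smallest p in each direction, and the PERK and ATF4 arm also by a fixed set of genes. Other choices of background correction, scaling, probe filter, variance model, threshold and reading of several probes were tried, as were a replicate block and the omission of 1 array at a time; series matrix values under 16 were set to 16 before log2. Scan dates and chip positions were not used here, so batches could not be checked.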

Additional observations from a re-analysis of the deposited data

How the results depend on the processing

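The number of arrays limits every value, and dim genes such as CLGN and ERO1B depend most on the background correction. Over all 13152 probes the count past an adjusted p of 0.05 in limma was 0 (2437 at an unadjusted p under 0.05), and 91 with an offset of 50, 647 with no background correction, 919 with scaling to the median of all probes, 10 with scaling to the median of tested probes, 1097 with the authors' averaged-table scaling, 66 with detection on all 4 arrays, 728 with trend and robust variance and 124 at a threshold of 0.1. It was 0 without any 1 array. For the listed genes the count of 0 became 1 with an offset of 50 and with scaling to the median of all probes (CLGN), 2 with no background correction (CLGN and MANF), 4 with the averaged-table scaling (CLGN and MANF higher, ERO1A and SEC61B lower), 3 with trend and robust variance (CLGN, MANF and SEC61B) and 1 at a threshold of 0.1, and was 0 without any 1 array. The 9 listed genes with an unadjusted p under 0.05 became 5 of 35 with no filter, where 10.3% of all genes were under it. They became 5 of 33 with a detection p under 0.05, where 13.9% of all genes were. Without any 1 array both the count and the share of all genes fell.

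The 401 probes at least 1.5-fold apart without overlap became 157 with an offset of 50, 40 with no background correction, 873 with scaling to the median of all probes, 682 in the series matrix, 66 with the averaged-table scaling, 222 with detection on all 4 arrays, 875 with no filter, 744 with a detection p under 0.05, 1431 at 1.3-fold, 32 at 2-fold, and 546 to 595 without 1 array. Counted as genes rather than probes, 252 were of that size, and 240 with the mean of the probes of a gene. The single listed gene of that size became 0 with no background correction or detection on all 4 arrays, 2 with scaling to the median of tested probes, 3 at 1.3-fold, and 1 to 2 without 1 array.

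Scaling to the median of all probes gave all genes a median of -0.2173. Under it the median of the listed genes was -0.1077, that of the lectin chaperones -0.0218, of the HSPA5 group 0.0076, of the disulfide enzymes -0.1496, of degradation -0.1884, of the sensors -0.3051 and of the translocon -0.4119, with 10 of 30 listed genes and 5 of 9 genes of the HSPA5 group higher. In the series matrix the medians were 0.0416 for the list, 0.1328 for the lectin chaperones, 0.1631 for the HSPA5 group and -0.1512 for the sensors, and with the averaged-table scaling 0.0179, 0.0803, 0.1059 and -0.1885, with -0.2934 for the translocon. Scaling to the median of tested probes gave -0.0742 for the sensors. Without 1 array the medians ranged from 0.0557 to 0.1611 for the list, 0.1664 to 0.2581 for the lectin chaperones, 0.1919 to 0.2462 for the HSPA5 group, 0.0045 to 0.1616 for the disulfide enzymes, -0.1016 to 0.0932 for degradation, -0.1287 to -0.0821 for the sensors and -0.2782 to -0.1218 for the translocon. Between 18 and 20 listed genes, and 8 of the HSPA5 group, were then higher. The cause was not tested for any of these.

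With scaling to the median of all probes 10 listed genes turned sign: CANX (-0.0466), HSPA5 (-0.0009), HSP90B1 (-0.0294), SDF2L1 (-0.0984), UGGT1 (-0.2359), PDIA4 (-0.1496), EDEM1 (-0.2287), EDEM2 (-0.117), DERL1 (-0.0292) and DERL2 (-0.148). Genes named from the further lists that turned were MARCHF6 (-0.0552), NFYC (-0.1542), TMBIM6 (-0.0578), LONP1 (-0.0741) and DDIT3 (-0.0885). NFYC was -0.0153 and ATF4 0.0442 in the series matrix, MARCHF6 was -0.0685 with the mean of its probes, and ATF4 was 0.0109 with cyclic loess and 0.1184 with scaling to the median of tested probes. Without 1 array SSR1 ranged from -0.2125 to 0.0113, NFYC from -0.0155 to 0.1653, BAK1 from -0.3090 to 0.0415, TRAP1 from -0.1206 to 0.0417 and ATF4 from -0.0909 to 0.0266. Settings that change only the probe filter, the variance model or the replicate block cannot alter a difference. No gene passed the threshold in the reported setting, so the tally that follows says little about how firm a difference is. Of 694 values of 41 named genes under the alternatives, 640 kept their direction and side of the threshold, 33 passed it with the same direction and 21 turned sign.

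Same-numbered arrays showed no shared pattern, with a correlation of -0.0868 across the tested probes in their deviations from the group means. This cannot tell whether the samples were handled in pairs. With the replicate block, 5 of the listed genes had an unadjusted p under 0.05, where 14.4% of all genes did, and 0 passed the adjusted p.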
